A study of Mus musculus with 2 samples.

Results

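The genes described here are 9 genes of DNA double-strand break repair, namely Xrcc5, Xrcc6, Prkdc, Lig4, Brca1, Brca2, Atm, Atr and Trp53bp1, out of 22753 genes on a whole mouse genome array. Their 11 probes were found by gene name among the spots that are not controls, and they occupy 29 of 43020 such spots. The genes were chosen by pathway with the measured difference of Xrcc5 between both arrays already known, so all differences below are a description and none was tested. The samples are EpiSC, stem cells of the mouse epiblast in its primed state, the stage that follows implantation. EpiSC clone 1 and EpiSC clone 2 are both wildtype and female with a C57BL/6 genetic background, and each was profiled at passage 9 on 1 single-colour array. Neither clone carried an added allele or received an agent other than the trypsin used to collect the cells, as far as the labels say. Each group is therefore 1 clone and 1 RNA sample, and a difference between clones has no replicate check.

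A double-strand break is repaired mainly along 2 routes. In non-homologous end joining the Ku heterodimer binds the broken ends and recruits a large protein kinase, and a DNA ligase complex seals them. In homologous recombination the ends are cut back to single strands, which then copy an intact sister chromatid. The kinases ATM and ATR signal the damage, and the products of Trp53bp1 and Brca1 oppose each other in the choice between the routes. Pluripotent stem cells divide rapidly with a short first gap phase and are known to use homologous recombination extensively.

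The probes behind the readings that matter most are shown here as they stand in the scanner files. The Xrcc5 probe carries the difference described below, the Brca1 probe lies at the limit of detection, and the Prkdc and Atm probes were each printed 10 times on the array. All are read 5′ to 3′ in lower case, since no base is singled out.

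Xrcc5: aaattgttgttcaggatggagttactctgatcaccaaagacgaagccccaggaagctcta

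Brca1: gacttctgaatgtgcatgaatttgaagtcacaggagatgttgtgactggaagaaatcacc

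Prkdc: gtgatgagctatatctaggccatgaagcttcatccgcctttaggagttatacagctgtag

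Atm: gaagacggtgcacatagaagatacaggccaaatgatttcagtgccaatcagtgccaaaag

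Each probe is 60 bases long. In mm9 the Xrcc5 probe spans chr1:72430014-72430320 on the plus strand, the Prkdc probe chr16:15839317-15841922 on the plus strand, and the Brca1 probe chr11:101359283-101363319 on the minus strand. These spans of 307, 2606 and 4037 bases are longer than the probes, so all 3 probes read across an exon junction of the spliced mRNA. The Atm probe lies unbroken at chr9:53256167-53256226 on the minus strand. The 11 probes hold between 21 and 27 G or C bases, and the Xrcc5 probe has 27. No other probe named for Xrcc5 was on the array, so its reading rests on 1 spot per clone.

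Scaled signals are log2 of the scanner software's processed signal minus its 75th percentile on that array, and differences are clone 2 minus clone 1. Levels of different probes are not set against each other, because brightness depends on the probe. Whole-array figures set the scale for what follows. The 75th percentile lay at a processed signal of 819 (clone 1) and 726 (clone 2), against medians of 7.96 and 7.13 in 153 negative control spots. Of the 22753 genes, 61.3% were well above background (the software's detection flag) on both arrays. All 8 markers of the primed epiblast were detected in both clones, among them Pou5f1 (2.87 in clone 1 and 2.51 in clone 2). Of 7 naive markers, 4, including Zfp42 and Prdm14, were undetected in both clones. The other 3 were detected in both, namely Klf2 (-2.26 and -1.83), Esrrb (-0.40 and -0.52) and Tbx3 (-0.90 and -0.35). Fibroblast genes were detected as well, 9 of 9 with a value, and their median difference of 0.15 was near the 0.05 of all genes. Of 4 macrophage markers, 2 were detected in both clones. The brightest Csf1r probe was 1.78-fold higher in clone 2 and its other detected probe differed by 0.09, while Lyz2 differed by -0.24. Cd68 was detected in clone 2 alone and Ptprc in clone 1 alone. The part of such cells in the readings of the repair genes was not tested, and in bulk RNA fewer cells of a type and less RNA per cell cannot be told apart.

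All 9 repair genes were well above background in clone 1 and 8 were in clone 2, the exception being Brca1. Among the 8 measured on both arrays, Xrcc5 was the 1 gene at least 2-fold lower in clone 2, and none was at least 2-fold higher. Across the array, 1.04% of 13928 measured genes were at least 2-fold lower and 1.51% at least 2-fold higher (145 and 211 genes). With scaling to probes detected on both arrays the split was 174 lower and 166 higher. The other 7 measured genes differed by less than 1.5-fold, although Brca2 passed 1.5-fold under the alternatives named with it below. Of all measured genes, 3.32% were at least 1.5-fold lower and 5.76% at least 1.5-fold higher.

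**Figure D1:**
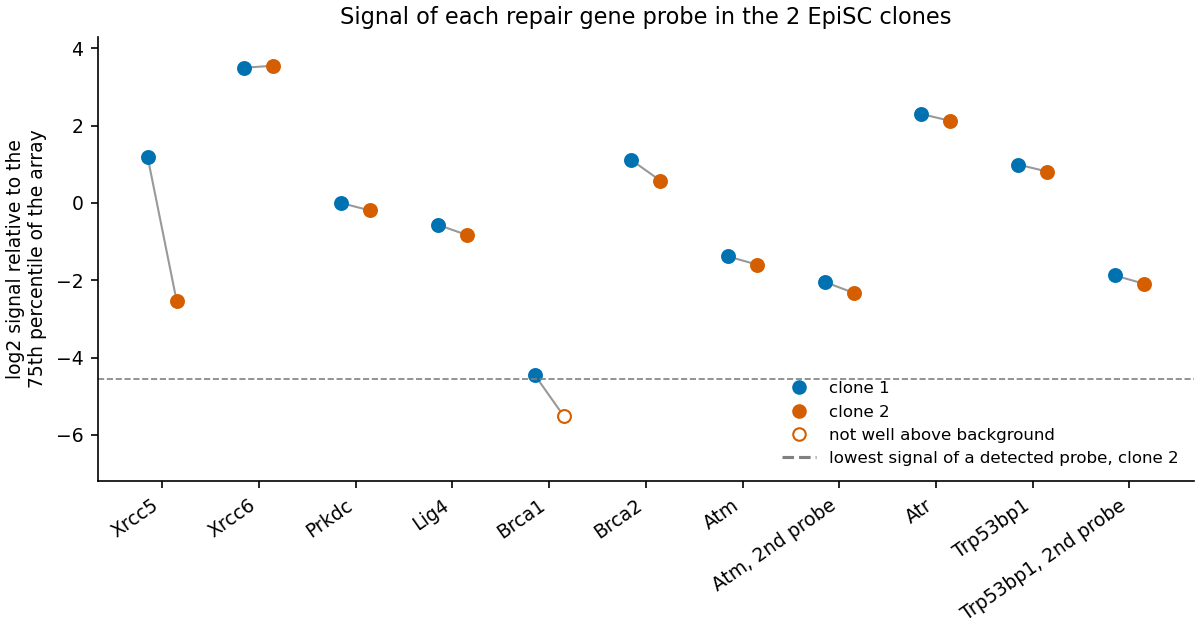
Scaled log2 signal (75th percentile of each array at 0) for each of the 11 probes, with clone 1 in blue and clone 2 in orange. The Xrcc5 pair runs from 1.19 down to -2.53, Brca1 falls from -4.44 to -5.50 and Brca2 from 1.11 to 0.58, the other pairs are closer to level, and Brca1 in clone 2 is drawn open because it was below detection (the dashed line marks the lowest detected signal of clone 2, -4.55).

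Xrcc5 encodes Ku80, a subunit of the Ku heterodimer that clamps onto DNA ends. Its processed signal was 1870 in clone 1 and 126 in clone 2, or 1.19 and -2.53 on the scaled log2 axis. It was thus 13.2-fold higher in clone 1, and well above background in both. The unprocessed pixel means of the spot, 2229 and 238 over local backgrounds of 47.5 and 46.0, show the same order. The pixels within the spot were even, with a coefficient of variation of 8.65% in clone 1 and 14.6% in clone 2, and the software gave errors of 187 and 14.1 to the processed signals. In the authors' deposited table the intensities were 1812 and 130. With normexp background correction followed by quantile normalization, the difference of -3.72 was -2.98.

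The size of this difference can be read against the scatter between spots of 1 probe. Among 264 detected probes printed 10 times, the median SD of the spots' difference between clones was 0.09 log2, and the largest deviation of a single spot from its probe's mean was 1.05 over 2476 spots. With outlier-flagged spots kept, that largest deviation was 1.79 over 2640 spots. The Xrcc5 difference of -3.72 exceeded both, but the gene was chosen with that difference known, so the comparison is not a test. Differences of like size occurred at detected spots of other genes. Within 5 rows and 5 columns they reached -3.61 near an Atm spot and 4.58 near the Atr spot. Among the 61 repeated probes with a mean signal under -2, the median SD was 0.16. This scatter covers the printing and reading of spots on these arrays and leaves out RNA preparation, labelling and the spread between cultures.

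The detected spots next to Xrcc5 on the array did not share its difference. The 6 nearest spots differed between -0.20 and 0.31 log2, and none of them was 2-fold apart. Of these, Ythdf2 (564 and 436) and Mapre3 (1199 and 1315) were detected on both arrays. The others were detected on neither, with signals from 6.50 to 20.5, where a loss of signal could hardly show. The 8 adjacent grid places ranged from -0.72 to 0.10, and the 2 of them detected on both arrays were at -0.12 and 0.10. In the wider window of 5 rows and 5 columns, the median over 112 spots was -0.04. That window held 10 spots at least 2-fold lower in clone 2 and 6 at least 2-fold higher. Summed over the same windows around all 29 repair gene spots, 118 of 3211 were lower and 120 higher. Both lower and higher spots were thus more frequent around Xrcc5 than in this sum, which includes its own window. Some other windows held as many lower spots or more. Around 1 Prkdc spot 15 of 111 were lower and 0 higher, and around 1 Atm spot 10 of 113 were lower and 8 higher. Among the 63 spots of the window detected on both arrays, 2 were 2-fold lower and 0 higher. Over all windows these counts were 30 and 20 of 1791. Whether a local mark on the array reached the Xrcc5 spot was not tested.

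**Figure D2:**
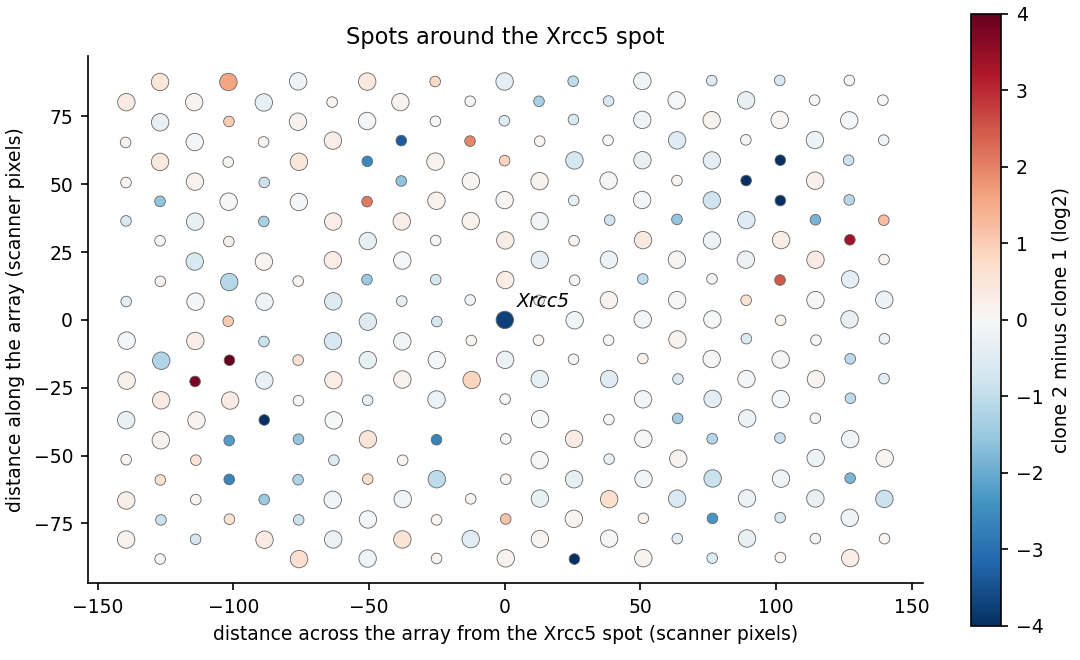
Spots around the Xrcc5 spot at their scanner positions, coloured by clone 2 minus clone 1 in log2 (colours end at 4 in either direction), with large circles for spots well above background on both arrays. The Xrcc5 spot at the centre is dark blue and the 6 spots around it are pale, while small groups of strongly coloured dim spots lie farther off.

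Its partner behaved differently. Xrcc6 encodes Ku70, which forms the heterodimer with Ku80, and its probe lies at chr15:81870452-81870511 on the plus strand. The signal was 9260 in clone 1 and 8510 in clone 2, a scaled difference of 0.05 log2. Xrcc6 was thus close to level between the clones, and its sign depended on the scaling, at -0.05 with quantile normalization and -0.07 in the authors' deposited table.

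Prkdc encodes DNA-PKcs, the kinase that Ku brings to the ends. Over its 10 spots the processed signal ran from 771 to 855 in clone 1 and from 570 to 694 in clone 2. After scaling, the mean was -0.00 ± 0.05 in clone 1 and -0.19 ± 0.08 in clone 2 (SD over 10 spots). All 10 spots were lower in clone 2, by 0.10 to 0.33 log2, and the ranges of the clones overlapped slightly, since the highest clone 2 spot was at -0.07 and the lowest clone 1 spot at -0.09. The gene's difference of -0.19 corresponds to 1.14-fold. Among all spots touching those of Prkdc, Padi2 was detected on both arrays and at least 2-fold apart, at 83.2 and 234, in the opposite direction. The wider surroundings leaned lower in clone 2. Within 5 rows and 5 columns of the Prkdc spots, 14 of 633 spots detected on both arrays were 2-fold lower and 2 higher. For the 6 nearest spots, the median difference ran from -0.48 to 0.26 between Prkdc spots. The part of such local shifts in the Prkdc difference was not tested.

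Lig4, the ligase that seals the joined ends, was read at chr8:9970290-9970349 on the minus strand. It had signals of 554 and 409.5, a difference of -0.26. Trp53bp1 encodes a chromatin reader that shields ends from being cut back. Its brighter probe, at chr2:121024792-121024851, had 1631 in clone 1 and 1276 in clone 2, and the other probe, at chr2:121022706-121022765, had 223 and 171. The differences of -0.18 and -0.21 agree within the scatter between spots. A spot next to the dimmer probe, Gm6337, was 2-fold lower in clone 2 as well (389 and 161).

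Brca2 was the recombination gene measured on both arrays, and its product is a mediator of that route. Its probe, at chr5:151372225-151372284 on the plus strand, gave 1772 in clone 1 and 1085 in clone 2. The difference of -0.53 log2, or 1.45-fold, was below the 1.5-fold mark. It passed that mark with scaling to probes detected on both arrays (-0.61) and with normexp background correction followed by quantile normalization (-0.62), and the lowest size under any setting was -0.52. It was inside the span of -0.68 to 0.83 that holds the middle 95% of all measured genes.

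Brca1, which promotes the cutting back of ends, was dim on both arrays. The signal was 37.7 in clone 1 and 16.0 in clone 2, which was 3.75 times and 1.78 times the 95th percentile of the negative controls. It was detected in clone 1 alone, as were 2.32% of all genes, so the difference has only a bound. By that bound Brca1 was at least 1.08-fold higher in clone 1, on 1 spot per array. This margin was smaller than the median SD of 0.16 log2 between spots of dim repeated probes. The measured scaled values of Brca1 were -4.44 and -5.50, while the lowest signal of any detected probe in clone 2 was -4.55. The measured difference of -1.06 was -0.16 with normexp background correction followed by quantile normalization. By the software's less strict flag for a positive and significant signal, Brca1 was detected in both clones.

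The probes of the damage-signalling kinases were lower in clone 2 by less than 1.5-fold with the main scaling. Atm answers breaks directly, and it was read by 2 probes. The brighter probe, at chr9:53245871-53245930, had 314 and 241, a difference of -0.21. The probe printed 10 times ran from 183 to 211 in clone 1 (9 spots without an outlier flag) and from 123 to 170 in clone 2 (10 spots), with a difference of -0.28. All 9 spots usable on both arrays were lower in clone 2, by 0.07 to 0.60. With the same pair of changes the brighter probe gave 0.01 and the repeated probe -0.17.

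The lowest Atm spot of clone 2 lay in the first column of the array, where some but not all spots beside it were far brighter in clone 2. Of its 5 adjacent spots, 3 were at least 8-fold brighter in clone 2, namely Slamf8 (8.42 and 123), LOC677629 and Tomm20l, the last of these at 11.2 and 125. LOC677629 had 8.58 and 117. The 6 nearest spots by position had a median difference of -0.50, with a range of -1.07 to 3.94. The lowest of these was ENSMUST00000063239 (56.9 and 24.0), and the 2 detected on both arrays were at -0.81 and 0.57. Whether a local mark reached the Atm spot was not tested. The Atm spot itself had 211 and 123, and without it the mean difference over the other 8 spots was -0.23 ± 0.09 (SD). Atr, which answers stretches of single-stranded DNA, was read at chr9:95851956-95852015 on the plus strand. It had 4034 in clone 1 and 3165 in clone 2, a difference of -0.18 that was -0.27 in the authors' deposited table.

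**Figure D3:**
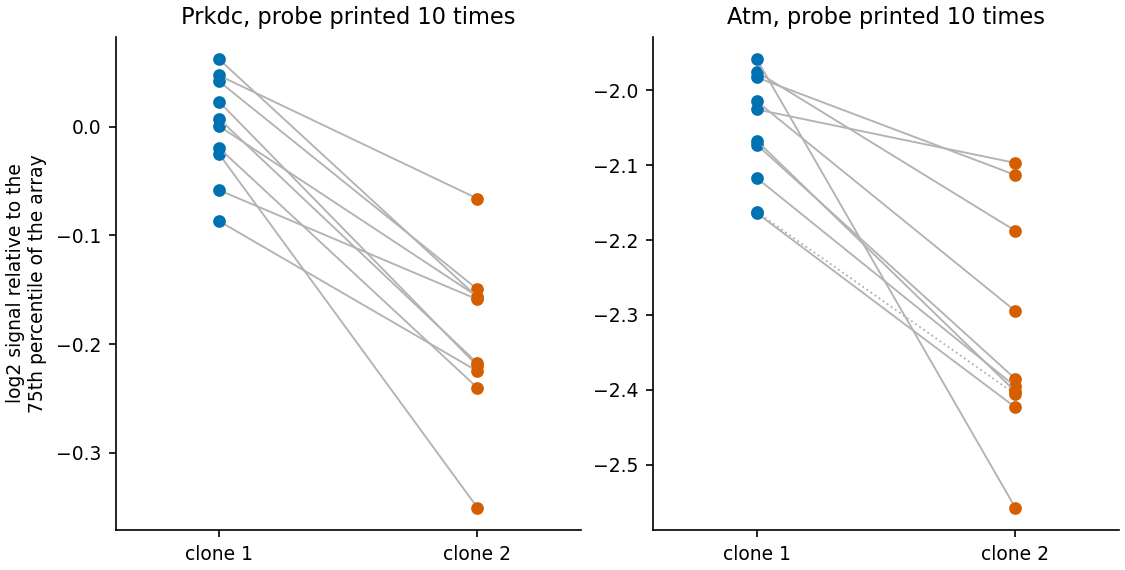
Scaled log2 signal of the 10 spots of the Prkdc probe and of the Atm probe printed 10 times, with lines joining the same place on both arrays (dotted for the spot with an outlier flag). Every line falls from clone 1 to clone 2, by 0.07 to 0.60 log2 (0.24 for the dotted line), and the vertical axes differ between panels.

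Read together, 7 of the 8 measured genes had a lower signal in clone 2, where 43.1% of all measured genes were lower by any amount. The median over the 8 was -0.20 against 0.05 over all genes, and -0.19 without Xrcc5. Xrcc6 was the gene with a higher signal, as were 56.9% of all measured genes. The count of lower genes was 6 with normexp and quantile normalization together, where the median was -0.16. It was 8 with quantile normalization alone, scaling to probes detected on both arrays, subtraction of the local median difference, or the authors' deposited values, with medians from -0.28 to -0.22. Brca2 had the second lowest difference of the 8, at -0.53, and the SD of single-gene differences over all measured genes was 0.40.

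**Figure D4:**
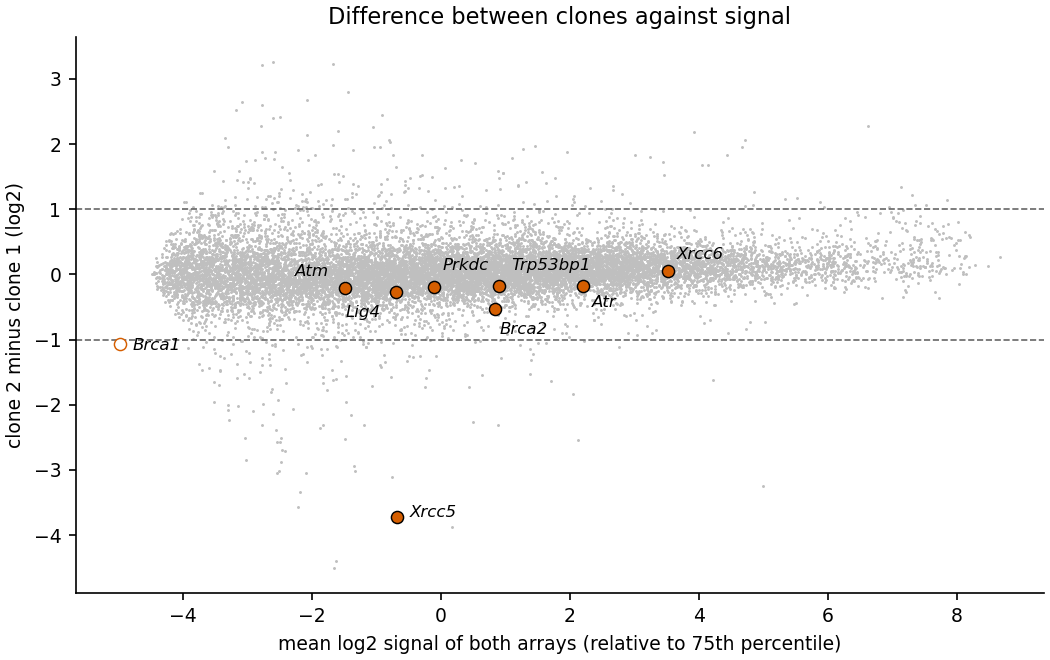
Difference between clones in log2 against the mean signal of both arrays for 13928 measured genes (grey) and the 9 repair genes (orange, with Brca1 open), and dashed lines at 2-fold. Xrcc5 lies at -3.72 far below the grey band and the other measured repair genes lie inside it.

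The wider repair pathway was read from further lists. Of 73 genes on 5 lists of repair factors, 71 were matched to a probe, and 70 were detected on both arrays. Uimc1, a reader of ubiquitin at breaks, was undetected in both clones. By the brightest probe of each gene, 0 of the 70 were 1.5-fold apart in either direction, where 3.32% of all measured genes were lower and 5.76% higher by that much. By any amount, 38 were lower and 32 higher in clone 2, against 43.1% and 56.9% of all measured genes, and the median was -0.02. Partners of the 9 genes and list extremes named below were picked after their values were seen.

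The other end-joining factors were the nearest comparison for Ku80. All 11 were measured, 3 lower and 8 higher in clone 2, with a median of 0.10 and a range of -0.22 to 0.45. Xrcc4, the scaffold of the ligase complex, had -0.01 in clone 1 and -0.10 in clone 2, and Nhej1, which bridges the ends, had -0.17 and -0.07. The 6 genes of alternative end joining had a median of -0.06. They included the polymerase Polq (-1.37 and -1.79), Parp1 (1.72 and 1.62) and the ligase Lig1 (4.56 and 4.54).

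End sensors and chromatin response genes had 20 of 21 matched members measured, 9 lower and 11 higher in clone 2, with a median of 0.06. In the complex that first senses breaks, the nuclease Mre11a had 1.97 and 2.38, Rad50 had 1.32 and 1.27, and Nbn had -2.38 and -2.65. The histone variant H2ax, which is phosphorylated around breaks, had 4.80 and 5.01.

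Homologous recombination genes had 23 measured, 16 lower and 7 higher, with a median of -0.06. The BRCA2 partner Palb2 had -1.68 and -1.79, the BRCA1 partner Bard1 1.85 and 1.80, and the single-strand binding subunit Rpa1 4.16 and 4.18. The resolvase Gen1 had the lowest difference in that list, at -0.52. Fanconi anaemia genes, which act on crosslinked DNA, had 10 measured, 6 lower and 4 higher, with a median of -0.08. Among them Fance had 3.99 and 4.17 and Fancg -3.36 and -3.91. For Fancc the brightest probe differed by -0.02, but its other detected probe differed by 2.88, a discrepancy noted after the values were seen. Proliferation genes, whose cycle many repair genes follow, had 11 of 12 measured with a median of 0.08, and Aurkb was not detected in either clone.

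**Figure D5:**
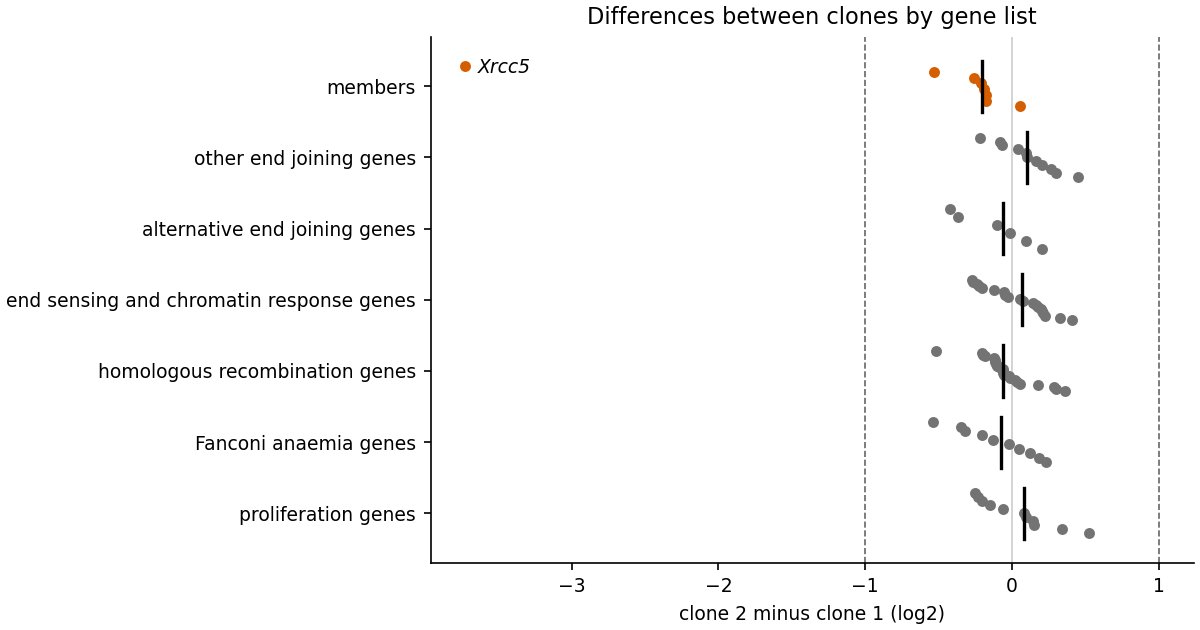
Difference between clones in log2 for each measured gene of the 9 repair genes (orange) and of 6 further lists (grey), with a black bar at the median of each list and dashed lines at 2-fold. Xrcc5 is the single point outside the dashed lines, and the list medians lie between -0.20 and 0.10.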

How the data were processed

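Total RNA of both clones was labelled with Cy3 and hybridised to 1 Agilent array each, per the labels' protocols. The authors' deposited scanner files hold spot intensities made with Feature Extraction 11.0.1.1 (protocol GE1_1100_Jul11, design 026655, probe positions on mm9), with spatial and multiplicative detrending and surrogate values for dim spots switched on and a separate background correction switched off, per the file headers. Other deposited columns are software flags. The authors' deposited table holds normalized intensities with a method not given in the sources used here. Of its 39429 entries, 52 with repeated probe identifiers were left out.

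Outlier-flagged spots were removed (277 in clone 1 and 246 in clone 2), log2 processed signals were averaged per probe, and the 75th percentile of each array was subtracted. A probe counted as detected if 50% or more of its spots carried the flag for signals well above background. A gene takes its brightest probe. Probes were named through RefSeq genes of GRCm38.p6 by accession (26055), symbol (3195) or older symbol (930), and 9249 were unnamed. Both arrays come from the same slide and scan, per the file headers, so neither separates the clones. With 1 array per clone no test was possible, and precision is limited by that number. Members and lists were chosen with earlier results of these data known. All repair genes are named, and by rule those of the wider lists that are 1.5-fold apart or undetected on an array, and the brightest of each, except items that are not reported here. The 6 nearest spots were added to the 8 adjacent places after the staggered layout was seen. Alternatives were 8 other scalings, backgrounds or probe rules, including limma 3.58.1 normexp with offset 50 followed by quantile normalization. Computation used R 4.3.3, Python 3.11.15, numpy 2.4.6 and pandas 2.3.3, and the steps were tested on simulated data.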

Additional observations from a re-analysis of the deposited data

How the results depend on the processing

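The Xrcc5 difference of -3.72 kept its direction and stayed beyond 2-fold under all 8 alternatives, between -3.80 and -2.98, and -2.98 was its value with normexp background correction followed by quantile normalization, which changes both steps. The other repair genes gave 78 alternative values between -1.14 and 0.07, of which 70 moved by less than 0.09, the SD between spots. The count of wider repair genes at least 2-fold higher in clone 2 was 1 when the detected probes of each gene were averaged (Fancc), in place of 0. Over all genes, 462 were at least 1.5-fold lower and 802 at least 1.5-fold higher with the main scaling. The 2-fold counts lower and higher were 145 and 211 with that scaling, and 74 and 104 with normexp and quantile normalization together. The cause was not tested. Brca2 passed 1.5-fold under 2 alternatives, at -0.61 with scaling to probes detected on both arrays and at -0.62 with normexp and quantile normalization. Brca1 was not well above background in clone 2. Leaving out an array leaves no comparison. No paired analysis was possible because each clone has 1 array. The median without Xrcc5 and Atm without its edge spot were added after seeing the data.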

Other observations

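Genes next to Xrcc5 on chromosome 1 did not share its difference. Within 1 Mb on either side in mm9, 18 probes of other transcripts were detected on both arrays. Their median difference was 0.18 log2, with a range of -0.28 to 0.77. Of the 18, 0 were 2-fold apart, where 1.04% of all measured genes were 2-fold lower and 1.51% higher. With so few probes that count is near these shares. Pecr, a peroxisomal reductase upstream, had 2.27 in clone 1 and 2.10 in clone 2. Downstream, 3 probes of Smarcal1, which remodels stalled replication forks, differed by 0.11 to 0.38. These genes were named after their values were seen.

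The same window around the other repair genes gave medians between -0.23 (Atm, 9 probes) and 0.09 (Brca1, 88 probes). Within it, 1 of the 88 probes near Brca1 was at least 2-fold lower in clone 2. At least 2-fold higher were 1 of 18 near Prkdc, 1 of 23 near Atr and 1 of 51 near Trp53bp1.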
